A study of Mus musculus with 6 samples.

Results

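The lipoxygenases and leukotriene receptors described here are 7 genes, Alox5, Alox12, Alox15, Cysltr1, Cysltr2, Ltb4r1 and Ltb4r2, chosen by name from the 254 genes of an nCounter Mouse Inflammation V2 panel, which counts RNA molecules through barcoded probes without amplification. All 7 were on the panel. Total RNA came from the back of SKH-1 mice, a hairless strain, as whole skin of full thickness. The UV plus BMS-202 group (n = 3) had BMS-202, which binds the checkpoint ligand PD-L1, applied to the skin (200 µl at 8 mM), and the UV group (n = 3) had 200 µl of the acetone vehicle applied. Both groups were treated 3 times, at 24 h and 1 h before and again directly after 1 acute dose of solar simulated light (UVA at 90 kJ/m2, UVB at 6 kJ/m2). Tissue was harvested 24 h after exposure. Unirradiated skin was not analysed here, so both groups carry the effect of UV.

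Lipoxygenases add oxygen to arachidonic acid. Alox5 encodes 5-lipoxygenase, which starts leukotriene synthesis in leukocytes, Alox12 encodes the platelet-type lipoxygenase, and Alox15 encodes the leukocyte-type enzyme of mouse macrophages and eosinophils. Leukotriene B4, a chemoattractant for neutrophils, signals through a high-affinity receptor encoded by Ltb4r1 and a low-affinity receptor encoded by Ltb4r2, which is also present in keratinocytes. Cysteinyl leukotrienes, which raise vascular permeability, signal through the receptors encoded by Cysltr1 and Cysltr2.

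In skin given BMS-202, transcripts of Alox5, Alox15 and Cysltr2 were higher than in UV skin, and those of Cysltr1, Ltb4r1 and Ltb4r2 were lower, relative to Gapdh. These are 3 genes called higher and 3 called lower of 7, on a panel where 38.3% of 240 tested genes were called higher and 55% lower (limma, adjusted p under 0.05). Cysltr1 and Cysltr2, the cysteinyl leukotriene receptor pair, went in opposite directions, and Ltb4r1 was 2.97-fold lower where Ltb4r2 was 1.45-fold lower. In RNA of whole skin, a change in the number of cells of a type and a change in RNA per cell cannot be told apart. Alox12 was near or under the background of the assay in both groups. Of the genes above the floor in every sample, Alox5 was higher under all 6 scalings tried but was not called with quantile normalization (log2 0.24, limma adjusted p = 0.124). Ltb4r1 turned to higher under 2 of the 6 scalings and Ltb4r2 under 4. Alox15, Cysltr2 and Cysltr1 have a whole group at the lowest value the table gives, and a rescaling by 1 factor per sample with a common floor can shrink or remove their difference but cannot turn it.

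Upstream sequence of 4 of the 7 genes was found in the RefSeq promoter table (GRCm38.p6). It is shown for 2 genes that rose, Alox5 and Cysltr2, and for Ltb4r1, which fell relative to Gapdh, so that the letters of genes with opposite differences can be set side by side. Each line gives the 250 bases before the transcription start, 5′ to 3′ along the gene, with capitals marking any match to the motifs named after the sequences.
Alox5 (chr6:116461179-116461428, minus strand): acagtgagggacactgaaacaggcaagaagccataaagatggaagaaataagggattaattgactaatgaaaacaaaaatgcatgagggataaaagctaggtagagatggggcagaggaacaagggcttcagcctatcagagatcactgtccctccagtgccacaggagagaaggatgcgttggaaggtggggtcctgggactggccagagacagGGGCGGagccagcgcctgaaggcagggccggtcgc
Cysltr2 (chr14:73049115-73049364, minus strand): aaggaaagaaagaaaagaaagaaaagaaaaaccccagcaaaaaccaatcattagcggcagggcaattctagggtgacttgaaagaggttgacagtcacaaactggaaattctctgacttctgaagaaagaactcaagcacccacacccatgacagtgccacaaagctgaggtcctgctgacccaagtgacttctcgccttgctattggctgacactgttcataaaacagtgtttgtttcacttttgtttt
Ltb4r1 (chr14:55765712-55765961, plus strand): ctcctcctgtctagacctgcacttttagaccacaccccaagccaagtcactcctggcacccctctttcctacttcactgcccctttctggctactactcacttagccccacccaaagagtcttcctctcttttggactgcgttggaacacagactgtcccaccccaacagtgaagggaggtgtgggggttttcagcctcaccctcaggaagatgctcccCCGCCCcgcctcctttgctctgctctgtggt
The motifs searched on both strands were the GC box GGGCGG, the AP-1 site TGANTCA, the STAT site TTCNNNGAA and the TATA box TATAAA. The Alox5 window held 1 GC box, its first base 35 bases before the start, and the Ltb4r1 window held 1, at 31 bases. The Cysltr2 window held no match to any of the 4 motifs, and the other 3 motifs had no match in the Alox5 and Ltb4r1 windows. Over all 32851 promoter windows of this length in the table, 32.7% held a GC box, 12.4% a TATA box, 7.02% the STAT site and 6.75% the AP-1 site. The GC content of the window was 52.8% for Alox5, 42.8% for Cysltr2 and 56.8% for Ltb4r1. A match is a run of letters and no evidence of binding.

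The deposited gene values are probe counts multiplied by 1 factor per sample that sets Gapdh to 6417 in every sample, and values below 20 are written as 20, called the floor below. The recovered gene counts totalled 41537 to 45040 per sample with BMS-202 and 142900 to 160891 in UV skin, so that the floor stood for 16.5 to 18.3 counts with BMS-202 and 21.6 to 23.8 counts in UV skin. The 8 negative control probes, carried through the same scaling, averaged 20.9 ± 0.586 with BMS-202 and 11.1 ± 0.787 in UV skin (SD, n = 3 each), 1.88-fold higher with BMS-202. The negative control limit, the mean plus 2 SD of these probes in a sample, reached 45.3 with BMS-202 and 26.6 in UV skin. Of the housekeeping genes other than Gapdh, Cltc (9.77-fold), Gusb (10.6-fold), Hprt (6.32-fold), Pgk1 (7.74-fold) and Tubb5 (2.33-fold) read lower with BMS-202, so each direction below is one relative to Gapdh where no other scaling is named. Replicates of a group differed by little more than counting noise over the genes above the floor (chi-square per degree of freedom 1.10 with BMS-202 and 1.11 in UV skin; 1.33 and 1.13 over genes with more than 100 counts), and p-values measure only this spread, which may be technical. For Alox15 and Cysltr2 in UV skin, and Alox12 and Cysltr1 with BMS-202, the floor sets the SD to 0. The SE and p-value of these genes count that constant as spread, so they do not measure replicate spread fully.

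**Figure D1:**
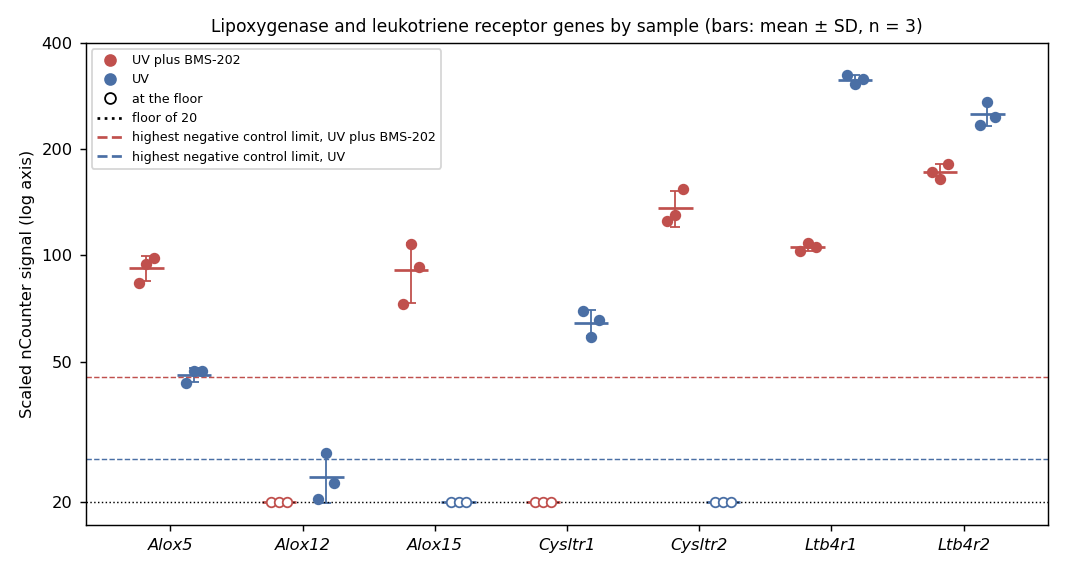
Scaled nCounter signal (log axis) of the 7 genes in each sample, with the mean and SD of 3 samples a group, UV plus BMS-202 left of UV. Open points lie at the floor of 20, and dashed lines give the highest negative control limit of each group, 45.3 with BMS-202 and 26.6 in UV skin; the groups overlap for none of the genes.

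Among the lipoxygenases, Alox5 had signals of 83.6, 94.3 and 98.3 in the UV plus BMS-202 samples, against 43.5, 47.0 and 47.1 in the UV samples. Every sample of both groups lay above its own negative control limit, and the groups did not overlap. Alox5 averaged 92.0 ± 7.60 with BMS-202 and 45.9 ± 2.02 in UV skin (SD, n = 3 each), 2.01-fold higher, with a log2 difference of 0.99 (SE 0.10, limma adjusted p = 4.03e-06). The counts before scaling were also higher with BMS-202, at 69, 79 and 90 counts against 47, 56 and 54 in UV skin, although the lanes of the UV samples held more gene counts in total. Unscaled counts of the 8 negative control probes were higher with BMS-202 as well, totalling 139 to 148 per sample against 88 to 111 in UV skin. With the negative control mean subtracted, the Alox5 difference was log2 1.01 (limma adjusted p = 1.77e-05). With quantile normalization the difference was 0.24 and did not pass (adjusted p = 0.124).

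Alox15 read 72.7, 107 and 92.8 with BMS-202 and was at the floor in all 3 UV samples. The 3 UV plus BMS-202 samples lay above the negative control limit of 45.3. Their mean of 91.0 ± 17.4 was at least 4.55-fold higher than in UV skin, and the log2 difference, taken with UV skin at 20, was 2.11 (SE 0.13, limma adjusted p = 6.37e-08). The SD of 17.4 with BMS-202 exceeded the 10.3 that counting alone gives, the widest relative spread of the 7 genes.

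Alox12 was at the floor in all 3 UV plus BMS-202 samples, against 20.4, 27.7 and 22.7 in the UV samples. Of the UV samples, 1 of 3 was above its own negative control limit. The log2 difference of -0.22 did not pass (95% interval -0.44 to 0.004, limma adjusted p = 0.0568). Without UV replicate 1, the lowest of the UV samples, it was -0.31 and passed (adjusted p = 0.0107). At this depth Alox12 was not measured clearly above background in either group.

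The receptors for cysteinyl leukotrienes went in opposite directions. Cysltr2 read 125, 130 and 154 with BMS-202 and was at the floor in all 3 UV samples. All of the BMS-202 values lay above the negative control limit, and the mean of 136 ± 15.6 was at least 6.81-fold higher than in UV skin (log2 difference 2.70, SE 0.10, limma adjusted p = 1.35e-09). Cysltr1 showed the reverse order, at the floor in all 3 UV plus BMS-202 samples and at 69.5, 58.7 and 65.5 in the UV samples. With BMS-202 it was at least 3.23-fold lower than its mean of 64.6 ± 5.45 in UV skin, which came from 70 to 75 counts per sample (log2 difference -1.64, SE 0.09, adjusted p = 1.65e-08). Raising all values under the negative control limit to that limit gave log2 differences of 1.56 for Cysltr2 and -0.50 for Cysltr1, both past the threshold (limma adjusted p = 1.09e-07 and 1.92e-04). This step sets the group at the floor to a constant, so it could change the size of each difference but not its sign.

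Both receptors for leukotriene B4 were measured above the negative control limit in all 6 samples. Ltb4r1 had signals of 103, 109 and 106 with BMS-202, against 323, 305 and 315 in UV skin. No sample given BMS-202 came near the lowest UV sample. Ltb4r1 averaged 106 ± 2.81 with BMS-202 and 315 ± 9.04 in UV skin (SD, n = 3 each), 2.97-fold lower (log2 difference -1.56, SE 0.07, limma adjusted p = 3.60e-09). Ltb4r2 had signals of 172, 165 and 181 with BMS-202, against 234, 272 and 246 in UV skin, again without overlap. It averaged 173 ± 8.33 with BMS-202 and 251 ± 19.1 in UV skin, 1.45-fold lower (log2 difference -0.53, SE 0.08, adjusted p = 7.13e-05). Both calls depended on the scaling: with the 6 housekeeping genes Ltb4r1 turned to 0.68 and Ltb4r2 to 1.71, and with the 5 other than Gapdh to 1.13 and 2.16. Ltb4r2 also turned to 0.38 with the panel median and to 0.68 with quantile normalization, each past the threshold, whereas Ltb4r1 stayed lower with both (-0.65 and -0.99).

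Ratios between genes of 1 sample do not depend on the factor of that sample, and 5 such ratios within the gene classes were set up. The Cysltr1 to Cysltr2 ratio was at most 0.160, 0.154 and 0.130 in the UV plus BMS-202 samples, with Cysltr1 at the floor, and at least 3.48, 2.94 and 3.27 in the UV samples, with Cysltr2 at the floor. The groups' bounds lie at least 21.8-fold apart on average, so the 2 receptor genes changed unequally whatever the scaling factor. The Ltb4r1 to Ltb4r2 ratio was 0.599, 0.659 and 0.584 with BMS-202 and 1.38, 1.12 and 1.28 in UV skin, all measured. Its log2 difference was -1.03, a 2.05-fold lower ratio, with an exact two-sided permutation p of 0.1, the smallest that 3 samples against 3 allow. This was the 1 ratio of the 5 that could be tested, since each of the other 4 held a gene at the floor.

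Among the lipoxygenase ratios, Alox5 to Alox15 was 1.15, 0.878 and 1.06 with BMS-202 and at least 2.18, 2.35 and 2.36 in UV skin, a bound at least 2.24-fold lower with BMS-202 on average, which was not tested. The Alox5 to Alox12 ratio was at least 4.18, 4.71 and 4.91 with BMS-202 and was 2.14, 1.70 and 2.08 in UV skin. The Alox12 to Alox15 ratio was at most 0.275, 0.186 and 0.215 with BMS-202 and at least 1.02, 1.38 and 1.13 in UV skin. Both of these ratios rest on Alox12 signals close to background.

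**Figure D2:**
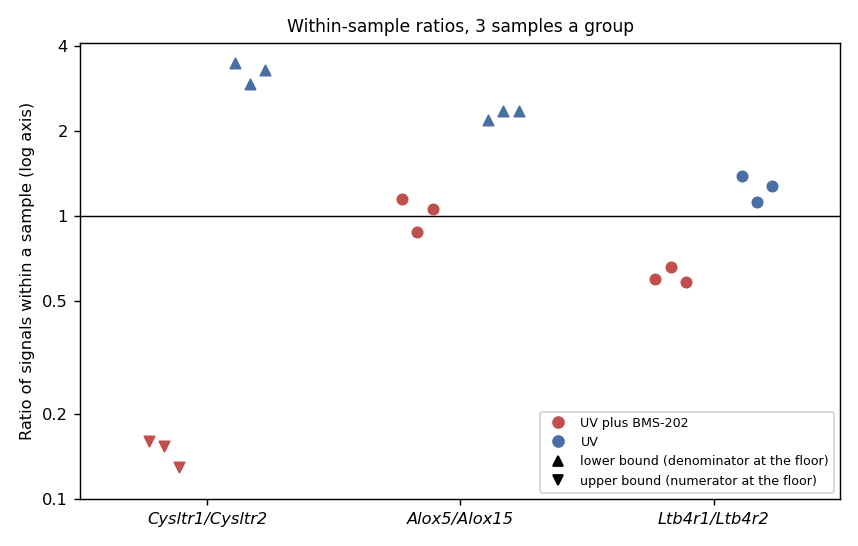
Ratio of the signals of 2 genes within each sample (log axis), UV plus BMS-202 left of UV, 3 samples a group. Triangles are bounds where a gene lies at the floor; the Cysltr1 to Cysltr2 ratio is at most 0.160 with BMS-202 and at least 2.94 in UV skin, and the Ltb4r1 to Ltb4r2 ratio lies between 0.584 and 0.659 with BMS-202 and between 1.12 and 1.38 in UV skin.

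Calls were common across the panel. Of the 7 lipoxygenase and leukotriene receptor genes 6 were called in either direction, against 93.3% of the 240 tested genes, and the groups did not overlap for any of the 7, against 95% of tested genes. The number of calls is therefore close to the background. Alox15 and Cysltr2, both at the floor with UV alone, could pass the filter, above 20 in at least 3 samples, only by reading higher with BMS-202. Alox12 and Cysltr1, both at the floor in every BMS-202 sample, could pass it only by reading lower with BMS-202.

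Of 45 panel genes at the floor in every UV sample, 38 were above it in every BMS-202 sample and 4 were at it in every BMS-202 sample. The filter admitted those 38 only if they read higher, so that all of them were called higher (100%) says nothing of direction. By size of the difference, Cysltr2 ranked 6th and Alox15 18th from the top of these 38. The median of the 38 means with BMS-202 was 83.5, against 91.0 for Alox15 and 136 for Cysltr2. The UV level is also subtracted in each difference, so some link between level and difference is built in. Among genes above the floor in at least 1 UV sample, the direction of a call went with that level. Of 62 such tested genes with a UV mean up to 100, 77.4% were called higher and 12.9% lower, with a median log2 difference of 1.04. Alox5, at 0.99, lay close to this median. Cysltr1, at -1.64, was one of 8 genes called lower in that range, and 3 of those, Plcb1, Map2k6 and Tgfb2, lay lower still. Like Cysltr1, these 3 averaged 20, the floor, with BMS-202. The filter admitted each of them only if it read lower, so their direction says nothing against the share called lower. Among genes with UV means of 100 to 300, 75.9% were called lower (median -0.81), and Ltb4r2 at -0.53 was less low than that median. From 300 to 1000, 96.4% were called lower (median -1.80), and Ltb4r1 at -1.56 was less low too.

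**Figure D3:**
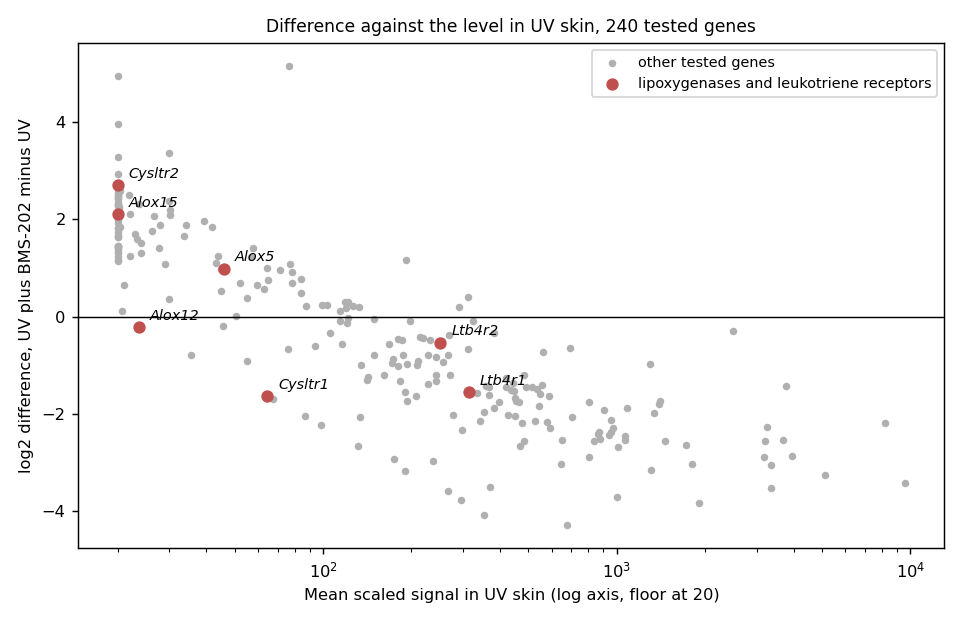
Log2 difference of UV plus BMS-202 minus UV against the mean scaled signal in UV skin (log axis) for the 240 tested genes, with the 7 lipoxygenase and leukotriene receptor genes in red. Genes with low UV signals lie mostly above 0 and genes with high ones below. Cysltr1 (-1.64) and Alox12 (-0.22) lie under most genes of their level, but both were at the floor with BMS-202 and could be tested only if lower.

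The scaling moved the whole panel as well. The median log2 difference of all tested genes was -0.56 as deposited, 1.35 with the 6 housekeeping genes, 1.55 with the 5 other than Gapdh, 0.28 with the panel median, 0.05 with quantile normalization and -0.93 with the positive spike-in controls. Relative to that median, Cysltr2 was higher by 1.15 to 3.26 on the log2 scale across the 6 scalings, Alox15 by 0.56 to 2.67 and Alox5 by 0.19 to 1.61. Ltb4r1 lay below the median under all 6, at -1.03 to -0.41. Ltb4r2 lay close to it or above, at 0.01 to 0.63. Cysltr1 lay below it, at -1.94 to -0.67, under the 4 scalings that gave a value. Cysltr2, Alox15 and Cysltr1 have a whole group at the floor and passed the filter only through the other group. Their side of the median was therefore partly fixed beforehand, and their distances from it rest on the floor value. Under the housekeeping scalings all 6 samples fell to the common rescaled floor for Cysltr1, and the difference was bounded by at most 0.57 and 1.02, so its direction was not determined there.

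**Figure D4:**
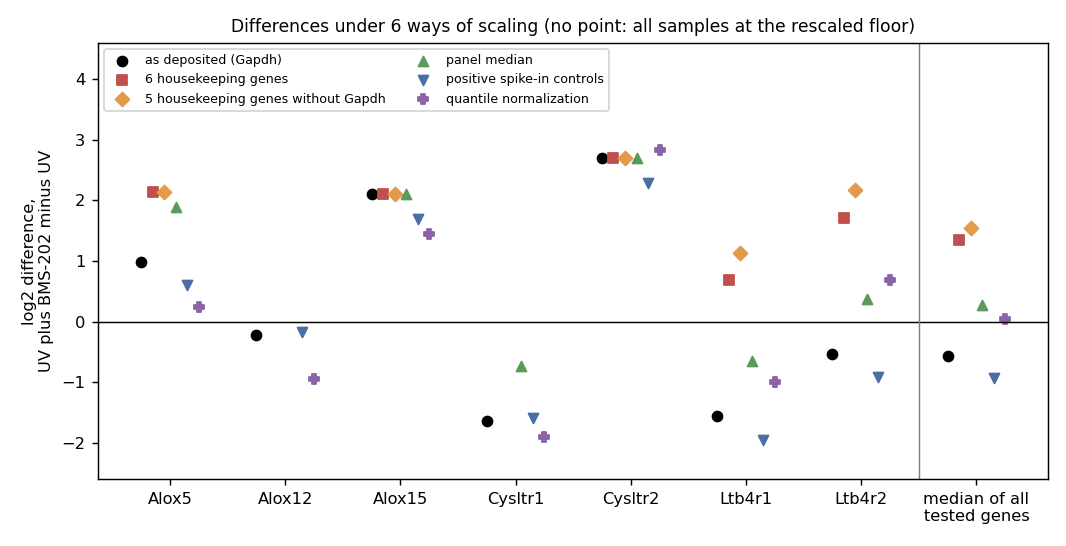
Log2 difference of UV plus BMS-202 minus UV for the 7 genes and for the median of all tested genes under 6 ways of scaling. Ltb4r1 and Ltb4r2 change sign with the housekeeping genes, and Alox5 lies above 0 under all 6. Alox15, Cysltr2 and Cysltr1, with a group at the floor, cannot change sign under a scaling by 1 factor per sample with a common floor. For Cysltr1 the direction under the housekeeping scalings was not determined. Genes with every sample at the rescaled floor have no point.

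Other genes of the eicosanoid pathway were split in the same fit. Of 19 listed genes, 11 were on the panel, and 5 were higher, 4 lower and 2 not past the threshold (median log2 -0.04, against -0.56 over all tested genes). Over all 240 tested genes 38.3% were called higher and 55% lower. Of the genes called higher, Ptger1 and Gpr44 were at the floor in every UV sample. Tbxa2r was at the floor in 2 of the 3, with the other at 20.4. The filter admitted these genes only, or for Tbxa2r almost only, if they read higher. The split and the median therefore say little of direction in this pathway. Pla2g4a, which encodes the cytosolic phospholipase that frees arachidonic acid, averaged 72.7 ± 13.5 with BMS-202 and 183 ± 5.77 in UV skin, a log2 difference of -1.34 (SE 0.13, limma adjusted p = 2.79e-06). Ptgs1, the constitutive cyclooxygenase gene, averaged 190 ± 17.6 with BMS-202 and 588 ± 21.8 in UV skin (log2 -1.63, adjusted p = 5.40e-09). The inducible cyclooxygenase gene Ptgs2 was also lower (log2 -0.80), as was the prostaglandin F receptor gene Ptgfr (-0.51).

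Receptors of other prostanoids were higher or did not pass. Gpr44, which encodes a prostaglandin D2 receptor of eosinophils and type 2 helper T cells, averaged 103 ± 12.0 with BMS-202 and was at the floor in all 3 UV samples, at least 5.17-fold higher. The thromboxane receptor gene Tbxa2r averaged 100.2 ± 10.4 with BMS-202 and 20.1 ± 0.225 in UV skin, with 2 of the 3 UV samples at the floor. Of the prostaglandin E2 receptor genes, Ptger1, at the floor in every UV sample, was at least 2.83-fold higher, Ptger2 was 1.95-fold higher and Ptger3 1.23-fold higher. Ptger4 (log2 -0.04, adjusted p = 0.783) and the prostacyclin receptor gene Ptgir (log2 -0.09, adjusted p = 0.373) did not pass. With either housekeeping scaling all 11 genes were called higher, on a panel with 184 genes called higher with the 6 housekeeping genes and 202 with the 5 other than Gapdh.

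**Figure D5:**
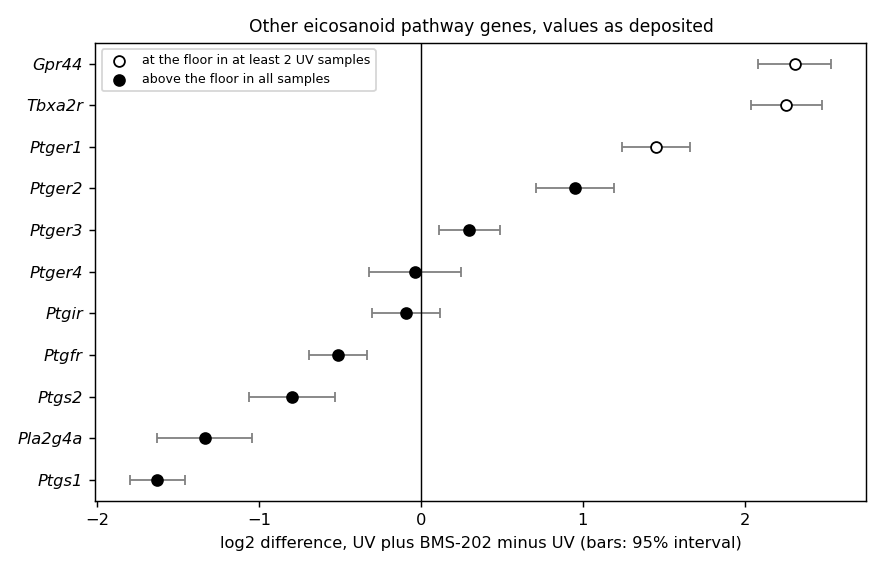
Log2 difference of UV plus BMS-202 minus UV, with 95% intervals, for the 11 other eicosanoid pathway genes as deposited. The enzyme genes Ptgs1 (-1.63), Pla2g4a (-1.34) and Ptgs2 (-0.80) lie lowest, and open points, Gpr44, Tbxa2r and Ptger1, mark genes at the floor in at least 2 UV samples.

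Markers of the leukocytes that carry these enzymes and receptors were few on the panel. Of 14 eosinophil and mast cell genes listed, 2 were measured: Ccr3, the eotaxin receptor gene, averaged 120 ± 9.32 with BMS-202 and was at the floor in all UV samples, while Areg, which other cells also express, was lower (log2 -1.40). Their summed signal was 322 to 342 with BMS-202 and 561 to 594 in UV skin. Of 9 neutrophil genes 3 were measured, with Cxcr1 higher from the floor, Cxcl2 lower and Cxcr2 not past, and summed signals of 203 to 251 with BMS-202 and 178 to 199 in UV skin. Of 11 macrophage and monocyte genes 6 were measured, with 3 lower (Itgb2, Mrc1 and Cd163), 1 higher (Chi3l3) and 2 not past, and summed signals of 1013 to 1087 with BMS-202 and 3156 to 3265 in UV skin. All 6 measured T cell genes of 10 listed were higher. Their sums were 439 to 475 with BMS-202 and 160 to 196 in UV skin. Here and in the sums above, a value at the floor was counted as 20. Of these genes, Cd40lg, Fasl and Ccr4 read 20 in every UV sample, so the filter admitted them only if higher. Cd4, Ltb and Ccr7 had UV means of 64.3, 23.3 and 27.6. Among the 62 tested genes of that range, up to 100 and not wholly at the floor, 77.4% were called higher. The shared direction of the 6 therefore says little of T cell genes in particular. The part of these cells in the differences of the 7 genes was not tested. Of 7 keratinocyte genes listed, 1 was measured (Il1rn), so the skin label was not checked against keratin genes here.

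The genes whose profile over the 6 samples lay closest to each of the 7 were named by the Euclidean distance of log2(value + 1) centred on the gene's mean. With 2 groups of 3 samples, this distance mostly reads the size of the group difference. Alox5 was closest to Ccl21a (distance 0.221) and Irf7 (0.252), and Alox15 to Creb1 (0.168) and Tnfsf14 (0.258). Cysltr2 was closest to Mbl2 (0.191) and Crp (0.312), both at the floor in every UV sample, as it was. Cysltr1 and Ltb4r1 shared Mapk8 as their nearest gene (0.141 and 0.136), followed by Tgfb2 for Cysltr1 (0.144) and Irf5 for Ltb4r1 (0.163). Ltb4r2 was closest to Ccl22 (0.169) and Tradd (0.190), and Alox12 to Retnla (0.259) and Rapgef2 (0.263).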

How the data were processed

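The deposited table holds a scaled signal for 254 genes (248 endogenous, 6 housekeeping) in 6 samples, and unscaled counts of 6 positive and 8 negative control probes. The assay and RNA extraction are given per the labels; neither software nor background handling is given in the sources used here. The scaling, the floor of 20 and the factor per sample were read from the deposited signal: 100% of gene values above the floor were whole multiples of 1 step per sample, within 0.006 plus a millionth of the value. Recovered counts served for depth, ratios to controls, the control limit, the replicate chi-square, and the counts and counting SD quoted for single genes. No group test was run on them.

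Groups came from the labels' treatment field. limma 3.58.1 in R 4.3.3 (lmFit, eBayes with a trend) was fitted to log2(value + 1), a scale that understates changes of low genes, over the 240 endogenous genes above 20 in at least 3 samples, with Benjamini-Hochberg adjustment at 0.05. The script was tested on simulated data. Differences subtract the UV mean from the UV plus BMS-202 mean. Folds are ratios of group means, with a group at the floor entered at 20 and the fold given as a bound. Ratios were tested by exact permutation (scipy 1.17.1). After rescaling, the highest rescaled floor was set for all samples.

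Members, gene lists, motifs and tests were chosen with earlier results of these data known. Named genes were the 7 members, the other eicosanoid genes on the panel, the housekeeping genes and the 2 nearest genes of each member; marker genes come from lists of cell type markers, and Plcb1 and Map2k6 were named after their values were seen. Gpr44 was matched to Ptgdr2 through RefSeq synonyms. The labels state 3 mice per group without tying samples to mice. Alternatives were other scalings, background handling, filters, pseudocount, limma settings, a replicate block and leaving out each sample.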

Additional observations from a re-analysis of the deposited data

How the results depend on the processing

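Alox15, Cysltr2 and Cysltr1 have a whole group at the floor. Their sign could not turn under a rescaling by 1 factor per sample with a common floor, and is no sign of stability. For Cysltr1 the housekeeping scalings only bounded the difference, by at most 0.57 and 1.02, so its direction was not determined there. The differences of Alox15, Cysltr2 and Cysltr1 were log2 0.97 to 2.11, 1.56 to 2.82 and -1.90 to -0.50 over the alternatives that gave a value, apart from leaving out samples. Alox5, above the floor in all samples, kept its direction and call except with quantile normalization (0.24, adjusted p = 0.124). Alox12 passed with quantile normalization (-0.94, adjusted p = 1.17e-04). Scaled to the 6 housekeeping genes, Ltb4r1 turned to 0.68 and Ltb4r2 to 1.71, and with the 5 other than Gapdh to 1.13 and 2.16. Ltb4r2 also turned to 0.38 with the panel median and to 0.68 with quantile normalization. Each cause was not tested beyond the shift of the panel median given above. The 7 genes then had 5 higher and 0 lower calls with either housekeeping scaling (limma; 0 lower at an unadjusted p under 0.05 too), as Alox12 and Cysltr1 had every sample at the rescaled floor and gave no value. The panel had 92 higher and 132 lower calls as deposited, 184 and 34 with the 6 housekeeping genes and 202 and 15 with the 5. The other eicosanoid genes had 11 and 0 with both, 8 and 2 with the panel median, and 1 lower with quantile normalization. Alox12 gave no value with the panel median, with the negative control mean subtracted, with values raised to the negative control limit or with a filter at 50.

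Leaving out 1 sample at a time gave 0.94 to 1.05 for Alox5, -0.31 to -0.10 for Alox12, 1.99 to 2.26 for Alox15, -1.70 to -1.58 for Cysltr1, 2.61 to 2.76 for Cysltr2, -1.58 to -1.54 for Ltb4r1 and -0.58 to -0.48 for Ltb4r2. Calls among the 7 were 3 higher and 3 to 4 lower, on the panel 87 to 94 higher and 132 to 134 lower, and among the other eicosanoid genes 5 higher and 4 lower. Alox12 passed without UV replicate 1 (-0.31, adjusted p = 0.0107). The Ltb4r1 to Ltb4r2 ratio differed by -1.12 to -0.97 without 1 sample, and by -1.18 with the negative control mean subtracted.

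Samples of the 2 groups with the same number did not deviate together (correlations 0.0195, -0.0329 and 0.0118 over tested genes), so they share only a number; with the replicate block the panel had 90 higher and 132 lower calls, Alox5 had 0.99 (adjusted p = 6.49e-05) and no call among the 7 changed. The planned edgeR fit on recovered counts was not run, because floor values hold no count. Alox12 and Cysltr1 with BMS-202, and Alox15 and Cysltr2 in UV skin, are known only as bounds, and Alox12 in UV skin lies close to the negative control limit.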
